A study of Mus musculus with 16 samples.

Results

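The circadian clock genes of the mouse hippocampus were followed here as 10 members: the output factors Dbp, Tef and Hlf, the nuclear receptors Nr1d1 and Nr1d2, the period genes Per1, Per2 and Per3, and the activators Arntl and Npas2. They were 10 of the 32285 genes in the count tables, found by their symbols. They were chosen by measured values, with earlier results of these data in view: how their levels ran together across libraries and classes of nuclei, and DMXAA against vehicle within each genotype. Runs across all libraries and classes also hold the differences between the genotypes and between the classes. All values of the members are therefore given as descriptions, with their spread over libraries and with no p-value. Where members that met a call rule are counted, nothing about them is read from the counts. Tests are given for 17 other listed clock genes and for the gene lists set beside them.

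Single nuclei from the hippocampus of male mice were sequenced to ask what stimulation of STING, the adaptor of the cytosolic DNA sensor cGAS, does with and without the type I interferon receptor. The 16 libraries fell into 4 groups of 4: C57BL/6 (WT) mice given vehicle, WT mice given DMXAA, Ifnar1-/- (KO) mice given vehicle and KO mice given DMXAA. DMXAA is an agonist of mouse STING that was injected into the peritoneal cavity repeatedly over several days. WT animals were 2 months and 23 days old and KO animals 3 months and 3 days, so that genotype, age and cohort cannot be told apart. Both KO groups carry the same deletion, in all their cells. Mice were kept on a light and dark cycle, and the time of day at which tissue was taken is not given in the sources used here. No value below can therefore be placed at a clock time. A difference in that hour between groups or animals cannot be told apart from treatment, genotype, age or cohort in any comparison below. Each library came from 1 animal, and its replicate number only names it.

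Of 155084 barcodes, 105974 nuclei were kept, 5015 to 9018 per library, with 30996824 to 49426701 unique molecular identifiers (UMIs) per library. The nuclei were clustered without the listed clock genes and named from marker genes, and all markers of each of the 7 classes compared here were detected in all 16 libraries. A library held 1655 to 3830 excitatory neurons, 311 to 589 inhibitory neurons, 649 to 1050 astrocytes, 812 to 1382 oligodendrocytes, 150 to 267 oligodendrocyte precursors, 209 to 394 microglia and 65 to 175 fibroblasts. Its excitatory neurons were 804 to 1447 dentate granule, 182 to 671 CA1, 52 to 361 CA3 and 388 to 1858 other neurons. These other neurons gave 7083439 UMIs in WT vehicle replicate 2, against 12041623 to 15070726 in the rest of that group. This mix differed between libraries, and its part in the levels of excitatory neurons was not tested. The targeted gene, Ifnar1, was listed at 13.3, 14.4, 13.8 and 14.8 CPM (counts scaled to a common total, with the library size corrected by TMM, a factor that centres the bulk of genes between libraries) in excitatory neurons of the WT vehicle libraries and at 11.1, 9.60, 10.4 and 9.59 CPM in the KO vehicle libraries. It was at 12.9, 14.3, 13.5 and 13.8 CPM with DMXAA in WT and at 10.9, 10.1, 10.7 and 8.78 CPM with DMXAA in KO, so that every KO library lay below every WT library although transcripts were still counted. Which part of the gene these 3′ counts came from, and so whether they cover the deleted part, was not tested. Of 35 tests of interferon-stimulated genes across 6 classes, 28 rose with DMXAA in WT (DESeq2 26), among them Usp18, Oasl2, Ddx60 and Ifit1 in excitatory neurons at log2 changes of 6.75, 6.44, 5.53 and 5.34, and 0 in KO by edgeR (1 at an unadjusted p under 0.05, DESeq2 0). Of 152013 distinct barcode sequences, 3033 (2.00%) were in more than 1 library.

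WT DMXAA replicate 3 stood apart and is followed through the results. It gave the most nuclei (9018), and the summed level of 9 excitatory neuron markers in its astrocytes was 21.1% of that in its excitatory neurons, against 6.11% to 10.8% in the libraries of the other 3 groups. The highest share was also in WT DMXAA for oligodendrocytes (28.1%, against 7.39% to 11.8%) and microglia (37.2%, against 14.2% to 24.0%). All 9 of these markers were above 0 in each class and group, and the part of such carried RNA in the members' levels was not tested except where given below. Its Ifnar1 level lay with the WT libraries. The values of DMXAA in WT that it moved are also given without it.

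The clock is a loop of transcription and translation that runs in almost every cell. CLOCK or its relative NPAS2 pairs with BMAL1, the product of Arntl, binds E-box sequences and drives Per, Cry, Nr1d1, Nr1d2, Dbp and Tef. PER and CRY proteins return to the nucleus and repress this activator. NR1D1 and NR1D2 (REV-ERB alpha and beta) repress Arntl and Npas2 through ROR elements, so these peak when the E-box genes are low. DBP, TEF and HLF are relatives that bind D-box sequences and pass the rhythm on to output genes.

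The sequences below show where the letters of these elements stand in the promoters of the members, as background to genes that share inputs. RefSeq promoters of build GRCm38.p6, 250 bases before to 50 after a start, were found for 9 of the 10 members, and none is shown for Per2. Capitals mark the motif, and positions count from the start of transcription.
Per1, E-box at -166, forward strand of chr11:69098771-69098800: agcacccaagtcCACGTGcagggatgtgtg
Tef, E-box at -127, forward strand of chr15:81802534-81802563: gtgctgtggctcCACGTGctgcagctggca
Nr1d1, E-box variant at -28, reverse strand of chr11:98775388-98775417: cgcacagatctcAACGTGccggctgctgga
Per3, D-box at -205, reverse strand of chr4:151044852-151044881: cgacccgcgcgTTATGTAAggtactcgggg
Per3, D-box at -158, reverse strand of chr4:151044805-151044834: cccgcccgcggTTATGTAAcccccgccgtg
Arntl, ROR core at 30, forward strand of chr7:113207530-113207558: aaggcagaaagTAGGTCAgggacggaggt
The E-box CACGTG was in 7.15% of all 32851 promoters and, of the members, in those of Tef and Per1. The variant CACGTT, which reads AACGTG on the other strand, was in 4.68% and in that of Nr1d1. The D-box TTATGTAA was in 0.938% and in that of Per3, which held it at both places shown. The ROR core TAGGTCA was in 2.61% and in the promoter of Arntl shown. Tef held the E-box also in another promoter, at -138 on the forward strand (chr15:81811264-81811293), which is not shown. Both strands were searched, and a match describes letters in these windows only.

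In the GENCODE annotation of GRCm38 the members ranged in length from 5.116 kb for Dbp (chr7:45705088-45710203) and 7.402 kb for Nr1d1 (chr11:98767932-98775333) to 106.662 kb for Arntl (chr7:113207465-113314126) and 169.506 kb for Npas2 (chr1:39193731-39363236). Between them lay Per1 (14.744 kb, chr11:69095217-69109960), Tef (24.443 kb, chr15:81802421-81826863), Nr1d2 (35.074 kb, chr14:18204054-18239127), Per3 (41.014 kb, chr4:151003652-151044665), Per2 (43.343 kb, chr1:91415982-91459324) and Hlf (54.36 kb, chr11:90336536-90390895). The lengths are used below, because the libraries differed in how much they counted of long and of short genes. Per3 lies wholly inside Camta1 on the same strand, so its counts are uncertain. The ends of Dbp and Sphk2 overlap by 737 bases and those of Nr1d1 and Thra by 1075 bases, on opposite strands.

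The members were first compared between classes of nuclei within each library. Fibroblasts, astrocytes and neurons carried them in different proportions. Among the 7 classes compared here, the output, nuclear receptor and period genes were highest in fibroblasts or astrocytes, and the activators in astrocytes and then neurons. Classes too small to compare are given at the end, and some lay higher. Levels here are log2 CPM of the UMIs summed per library and class, scaled by the plain total with a prior of 1 UMI, and each is compared only with the same gene in other classes. Of 60 pairs of classes next to each other in a member's order, 15 had the same order in all 16 libraries, and in 36 the mean difference was smaller than its SD over libraries.

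Among the output genes, Dbp averaged 6.00 ± 0.63 (SD, n = 16) on the log2 CPM scale in fibroblasts and 5.16 ± 0.72 in astrocytes, a difference of 0.84 ± 0.42 in 16 of 16 libraries. Astrocytes stood 1.94 ± 0.74 above microglia for Dbp, also in 16 of 16. From microglia through oligodendrocyte precursors, excitatory neurons, oligodendrocytes and inhibitory neurons, no neighbouring pair differed for Dbp by more than the SD of its difference, and the order held in 7 to 11 of 16 libraries. Hlf showed the largest step among the members between the first pair of its order, with fibroblasts 2.26 ± 0.30 above astrocytes in log2 CPM in 16 of 16 libraries. Astrocytes exceeded excitatory neurons by 1.09 ± 0.26 for Hlf, and oligodendrocytes were the lowest class at 3.12 ± 0.64 log2 CPM. Tef, the most even of the 3, averaged 8.29 ± 0.26 in fibroblasts, 7.59 ± 0.26 in astrocytes and 5.82 ± 0.22 in inhibitory neurons, the lowest.

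The nuclear receptors differed between themselves. Nr1d1 was at 5.27 ± 0.34 log2 CPM in astrocytes and 5.01 ± 0.77 in fibroblasts, in that order in 9 of 16 libraries (difference 0.25 ± 0.66). Both averaged more than 2 log2 units above the 5 other classes, among which no neighbouring pair differed by more than the SD of its difference. Nr1d2 was broader: fibroblasts stood 0.99 ± 0.25 above astrocytes, astrocytes 0.56 ± 0.51 above microglia, and excitatory neurons were lowest at 5.18 ± 0.41 log2 CPM.

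For the period genes, Per1 in fibroblasts and astrocytes differed by less than its spread (0.14 ± 0.41, in 12 of 16 libraries), and oligodendrocyte precursors were lowest at 4.01 ± 0.48 log2 CPM. Per2 was at 6.29 ± 0.61 log2 CPM in fibroblasts, 6.01 ± 0.51 in oligodendrocyte precursors and 5.99 ± 0.42 in astrocytes, while microglia and oligodendrocytes were lowest and differed by 0.03 ± 0.72, less than its spread. Oligodendrocyte precursors were thus among the highest classes for Per2 and the lowest for Per1. Per3 was highest in fibroblasts, 0.93 ± 0.20 above astrocytes, and lowest in inhibitory neurons at 4.54 ± 0.45 log2 CPM.

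The activators had another order. Arntl, which encodes BMAL1, was highest in astrocytes at 6.82 ± 0.19 log2 CPM, 0.58 ± 0.24 above excitatory neurons in 16 of 16 libraries, and lowest in fibroblasts at 4.10 ± 1.02, below oligodendrocytes in 13 of 16 libraries. Npas2 was at 8.21 ± 0.38 log2 CPM in astrocytes, 0.80 ± 0.32 above excitatory neurons, which stood 1.07 ± 0.45 above inhibitory neurons. The next class, fibroblasts, was 2.31 ± 0.82 below inhibitory neurons. In oligodendrocytes, oligodendrocyte precursors and microglia, the level of Npas2 relative to excitatory neurons was at or below that of the summed excitatory neuron markers in 16 of 16 libraries, so that its counts there are read as background. The same held for Hlf in oligodendrocytes in 7 of 16 libraries and for Npas2 in fibroblasts in 8 of 16, where its level was 8.95% of that in excitatory neurons (median) and that of the markers 7.57%.

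**Figure D1:**
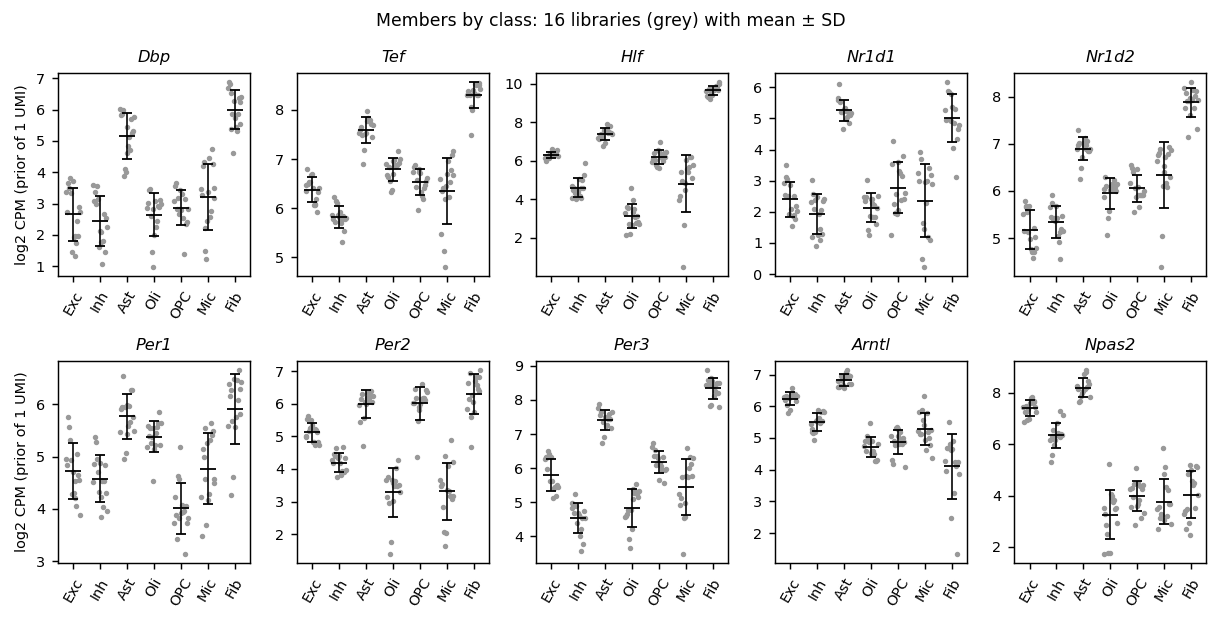
Each panel shows 1 member, with the 7 classes of nuclei (excitatory and inhibitory neurons, astrocytes, oligodendrocytes, oligodendrocyte precursors, microglia, fibroblasts) along the horizontal axis and log2 CPM with a prior of 1 UMI on the vertical axis; grey points are the 16 libraries and bars are the mean ± SD. Dbp, Hlf and Per3 stand highest in fibroblasts, and Arntl and Npas2 in astrocytes.

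DMXAA was then set against vehicle in WT animals, as a description. The values are TMM-scaled CPM, and the log2 changes with their SE are from edgeR fits of all genes in a class. In astrocytes and oligodendrocytes the output, receptor and period genes were mostly lower with DMXAA, and in each class 7 of 8 had a negative log2 change. The median was -0.33 in astrocytes, against 0.02 for all genes tested. In oligodendrocytes it was -0.36, or -0.62 without replicate 3, against 0.03 for all genes tested. Against the median of genes of like length, some of these differences lay mostly in replicates 1 and 2 of DMXAA. Oligodendrocyte Per2 was at -1.79, -1.40, 0.41 and -0.22 (log2), against -0.37 to 0.37 with vehicle. Astrocyte Tef was at -0.81, -0.49, 0.11 and -0.17, against -0.24 to -0.13. Astrocyte Dbp and Nr1d1 lay below vehicle in every DMXAA library. Microglial Per1 averaged -0.51 with vehicle and -0.10 with DMXAA, in the other direction. In excitatory neurons 3 of the 8 were negative and their median was 0.06, against 0.01 for all genes tested. Inhibitory neurons had 5 of 8 negative (median -0.12) and fibroblasts 8 of 8 (median -0.26). All 10 members overlapped between WT vehicle and WT DMXAA in excitatory neurons, inhibitory neurons and oligodendrocytes, where 1.84%, 2.08% and 2.35% of all genes did not.

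With all libraries Dbp carried the largest of these differences among the output, receptor and period genes. Without WT DMXAA replicate 3 that of Nr1d2 in microglia, given below, was larger. In astrocytes Dbp was at 60.9, 53.7, 53.1 and 60.9 CPM in the 4 WT vehicle libraries and at 14, 16.9, 16.9 and 42.4 CPM in the 4 WT DMXAA libraries. The groups did not overlap, and 3 of the DMXAA libraries sat close together while replicate 4 was nearest to vehicle. The log2 change was -1.31 ± 0.26, or -1.17 without WT DMXAA replicate 3. In oligodendrocytes Dbp was at 6.58, 7.38, 9.41 and 10.1 CPM with vehicle and 5.63, 2.48, 1.79 and 6.60 CPM with DMXAA, with replicate 4 of DMXAA just inside the vehicle range. That gave -1.0 ± 0.34, or -0.75 without replicate 3. In fibroblasts the levels were 105, 127, 117 and 95.3 CPM against 43.7, 65.0, 24.2 and 79.1 CPM, with no overlap and a log2 change of -1.12 ± 0.28 (-0.88 without replicate 3). It was the 1 of 8 fitted members without overlap there, where 2.35% of all genes had none.

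In microglia Dbp was too sparse for the fit, which left out 3 of the 10 members there. Its counts were 6, 5, 10 and 13 UMIs with vehicle and 1, 2, 1 and 3 UMIs with DMXAA, or 9.41, 7.96, 16.3 and 18.5 CPM against 1.38, 3.06, 1.32 and 4.06 CPM. Summed over 4 libraries these were 34 and 7 UMIs. Every DMXAA library was at or under 3 UMIs, the floor below which no fold is given, and every vehicle library was above it. Excitatory neurons did not follow: Dbp was at 8.84, 5.66, 10.5 and 9.70 CPM with vehicle and 11.9, 8.44, 3.04 and 11 CPM with DMXAA. There 3 DMXAA libraries lay within or above the vehicle range and replicate 3 lay below it. The log2 change was -0.02 ± 0.31 with it and 0.27 without it. CA1 neurons gave 0.46 ± 0.34 (0.79 without replicate 3).

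**Figure D2:**
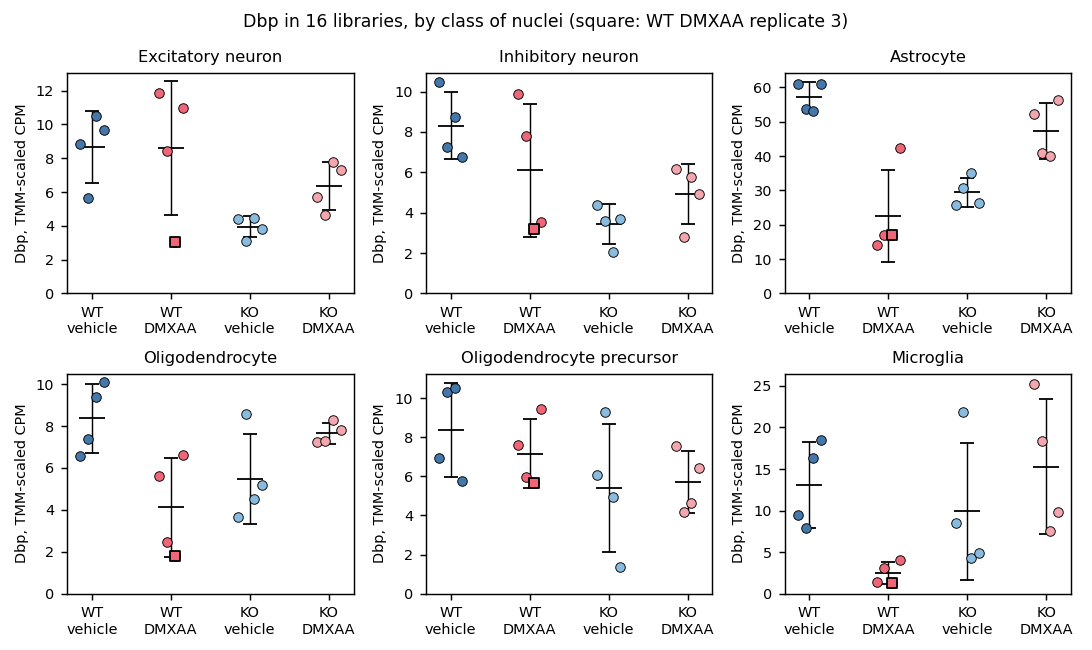
Dbp in TMM-scaled CPM (vertical axis, from 0) in each of the 16 libraries, by group and in 6 classes of nuclei; points are libraries, bars the mean ± SD of 4, and the square is WT DMXAA replicate 3. In astrocytes and microglia the 4 WT DMXAA libraries lie below the 4 WT vehicle libraries, and in excitatory neurons the groups overlap.

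The nuclear receptors, which repress the activators, were lower in the same glia. Astrocyte Nr1d1 was at 47.0, 45.4, 62.4 and 44.7 CPM with vehicle and 36.3, 36.6, 27.2 and 38.3 CPM with DMXAA. The groups did not overlap, and the log2 change was -0.53 ± 0.14. With Dbp it made 2 of 10 members without overlap in WT astrocytes, where 2.65% of all genes tested had none. In oligodendrocytes the log2 change of Nr1d1 was -0.70 ± 0.31, with levels of 4.57 to 7.34 CPM against 2.12 to 4.95 CPM. Microglial Nr1d1 gave 5, 4, 8 and 8 UMIs with vehicle and 0, 1, 0 and 1 UMIs with DMXAA, and it was left out of the fit.

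Nr1d2 in microglia was at 97.3, 107, 108 and 115 CPM with vehicle and 19.3, 30.6, 75.1 and 82.6 CPM with DMXAA. It was the 1 of 7 fitted members without overlap there, where 5.61% of genes had none, and its log2 change was -1.03 ± 0.32 (-1.26 without replicate 3). Replicates 1 and 2 of DMXAA were the low ones. In oligodendrocytes the log2 change of Nr1d2 was -0.40 ± 0.15 and in astrocytes -0.29 ± 0.14, with overlap in both. In excitatory neurons the log2 change of Nr1d1 was -0.37 ± 0.20 and that of Nr1d2 0.04 ± 0.12, again with overlap.

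Of the period genes, whose products repress the activator complex, Per3 was lower in glia. It was at 205, 221, 171 and 195 CPM in WT vehicle astrocytes and 105, 162, 130.5 and 175 CPM in WT DMXAA astrocytes, a log2 change of -0.46 ± 0.15. Replicate 4 of DMXAA lay inside the vehicle range. In microglia Per3 was at 36.1, 28.7, 32.6 and 51.3 CPM against 9.63, 21.4, 25 and 29.8 CPM, a change of -0.79 ± 0.30. In oligodendrocytes the change was -0.32 ± 0.20, or -0.61 without replicate 3, the highest DMXAA library at 29.0 CPM. Oligodendrocyte precursors gave -0.27 ± 0.16 for Per3. Per2 gave another value in each class: -0.21 ± 0.23 in astrocytes, -0.54 ± 0.41 in oligodendrocytes and 0.12 ± 0.19 in excitatory neurons. Without replicate 3 the first and second were -0.40 and -1.13.

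Oligodendrocyte precursors set the period genes against each other. Per2 was at 61.1, 62.9, 79.0 and 67.8 CPM with vehicle and 18.9, 43.0, 60.7 and 56.7 CPM with DMXAA, without overlap, a change of -0.60 ± 0.22. In this class 2.9% of genes had no overlap. Against the median of genes of like length, Per2 in DMXAA replicate 3 (-0.09, log2) lay inside the vehicle range of -0.12 to 0.25. Per1 was at 11.5, 17.2, 12.6 and 9.2 CPM against 22.7, 22.7, 14.1 and 34.3 CPM, a change of 0.90 ± 0.29 in the other direction. In excitatory neurons Per1 was at 26.5, 24.7, 44.4 and 40.8 CPM with vehicle and 33.3, 25.5, 21.9 and 21.9 CPM with DMXAA, a change of -0.41 ± 0.23, and dentate granule neurons gave -0.71 ± 0.21. Per1 also answers neuronal activity and glucocorticoids. Of 42 tests of immediate early genes in 6 classes 0 passed by edgeR with DMXAA in WT (5 at an unadjusted p under 0.05, DESeq2 0), and the values of Fosb, Egr2, Egr1 and Npas4 in excitatory neurons were -1.04, -0.96, -0.84 and -0.84. Of 74 tests of glucocorticoid-responsive genes 1 rose (10 at an unadjusted p under 0.05). Fkbp5, Fam107a, Zbtb16 and Cdkn1a in excitatory neurons were at 0.59, 0.82, 0.58 and -0.32, and did not pass (edgeR adjusted p = 0.493 for Fkbp5). The median of the glucocorticoid-responsive genes tested was -0.00012 in excitatory neurons and 0.53 in oligodendrocyte precursors, where 1 of 7 rose (DESeq2 2, 4 at an unadjusted p under 0.05), beside 0.02 for all genes there. It was 0.57 in oligodendrocytes and 0.41 in microglia. The part of either in the level of Per1 was not tested.

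The relatives of Dbp differed less from vehicle than Dbp in astrocytes and oligodendrocytes. Astrocyte Tef was at 173, 183, 183 and 174 CPM with vehicle and 117, 145, 199 and 180.2 CPM with DMXAA, so that replicates 1 and 2 lay below every vehicle library and replicate 3 above. Its change was -0.15 ± 0.14, or -0.27 without replicate 3. The log2 change of Hlf was 0.02 ± 0.19 in astrocytes (-0.23 without replicate 3) and 0.29 ± 0.13 in excitatory neurons (0.12 without it). In CA1 neurons it was 0.59 ± 0.18, the 1 of 10 members without overlap, where 2.51% of all genes had none, and in CA3 neurons 1.06 ± 0.36, with overlap. Both of these values include replicate 3, which gave the most CA3 UMIs of all libraries (3876602). In microglia Hlf gave 9, 10, 24 and 20 UMIs with vehicle and 0, 3, 18 and 20 UMIs with DMXAA, so that replicates 1 and 2 were at or under the floor of 3 UMIs and the other two within the vehicle range. The fitted change there was -0.79 ± 0.59 (-1.16 without replicate 3) for Hlf and -0.41 ± 0.33 (-0.62 without replicate 3) for Tef, both with overlap. In oligodendrocytes Hlf went from 0.32 to -0.63 when replicate 3 was left out.

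The activators went in different directions in different classes. Arntl in astrocytes was at 92.0, 105, 88.2 and 95.7 CPM with vehicle and 123, 112, 109.6 and 92.3 CPM with DMXAA, a change of 0.19 ± 0.10. In excitatory neurons it was at 67.1, 63.1, 65.0 and 69.0 CPM against 55.2, 46.1, 86.1 and 49.4 CPM. There 3 DMXAA libraries lay below every vehicle library and replicate 3 above, so that the change was -0.16 ± 0.16 with replicate 3 and -0.40 without it. Against the median of genes of like length, the DMXAA libraries were at -0.18, -0.45, -0.01 and -0.35 (log2). Vehicle libraries were at -0.08 to 0.05, so that replicate 3 lay within their range. CA1 neurons gave -0.43 ± 0.16 (-0.66 without replicate 3) and oligodendrocyte precursors 0.63 ± 0.25. In microglia Arntl was at 5.23, 5.81, 5.14 and 5.11 log2 CPM, scaled by the plain total, with vehicle. With DMXAA it was at 5.88, 5.55, 6.31 and 5.41, with overlap and replicate 3 highest. Npas2 in excitatory neurons was at 151, 101, 126 and 153 CPM and 129.8, 103, 187 and 107 CPM, with the same library highest, and its log2 change was -0.01 ± 0.18 (-0.23 without it). In oligodendrocytes, where Npas2 was read as background, it was at 5.26, 3.18, 40.4 and 2.97 CPM with DMXAA, and the change went from 0.86 to -0.91 when replicate 3 was left out. The microglial change of 1.46 ± 0.68 came with replicate 3 at 63.3 CPM, against 4.78 to 9.79 CPM with vehicle, and Npas2 could not be fitted there without that library. In CA3 neurons, with as few as 52 nuclei in a library, Npas2 was higher by 1.08 ± 0.29 (0.84 without replicate 3), the 1 of 8 fitted members without overlap, where 5% of all genes had none.

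In KO animals the level of Dbp in CPM was higher with DMXAA in astrocytes and excitatory neurons. In astrocytes it was at 25.8, 30.5, 35.0 and 26.3 CPM with vehicle and 52.1, 40.8, 39.9 and 56.2 CPM with DMXAA, without overlap and with a log2 change of 0.68 ± 0.25. Short genes as a whole were higher there, with a median of 0.27 in the shortest 10%, which holds Dbp. Against the median of that length class its change was 0.41, and its levels overlapped between the groups (0.08, 0.50, 0.40 and -0.14 against 0.70, 0.53, 0.34 and 0.83 on the log2 scale). In excitatory neurons it was at 4.41, 3.12, 4.47 and 3.81 CPM against 5.70, 4.65, 7.76 and 7.31 CPM, again without overlap, with a change of 0.68 ± 0.33, or 0.53 against its length class. In these 2 classes Dbp, in CPM, was the 1 member of 10 that lay wholly above vehicle, and in astrocytes Arntl was the 1 that lay wholly below. Of all genes, 7.32% in astrocytes and 9.59% in excitatory neurons had no overlap in either direction. In inhibitory neurons, oligodendrocytes, precursors and microglia 0 fitted members lay apart in KO, against 5.41% of genes in inhibitory neurons, 6.51% in oligodendrocytes, 5.02% in oligodendrocyte precursors and 5.78% in microglia. Oligodendrocytes gave 0.49 ± 0.35 for Dbp (0.24 against its length class) and fibroblasts 0.61 ± 0.26, with overlap. Microglia gave 15 UMIs of Dbp with vehicle and 26 with DMXAA, summed over 4 libraries each. The WT and KO changes of Dbp in astrocytes, -1.31 and 0.68, had opposite signs, and the difference between them is part of what chose the members.

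The median of the 8 output, receptor and period genes in KO was -0.02 in astrocytes, 0.02 in excitatory neurons and 0.01 in oligodendrocytes, with 4 of 8 positive in each. In inhibitory neurons 7 of 8 were positive with a median of 0.19, the largest being Hlf at 0.66 ± 0.25 and Nr1d1 at 0.63 ± 0.40, with overlap. Hlf in oligodendrocytes, at -0.70 ± 0.49, and Nr1d1 in fibroblasts, at -0.61 ± 0.42, stood below vehicle, also with overlap. In astrocytes the log2 change of Nr1d1 was -0.09 ± 0.14 and that of Per3 0.11 ± 0.15. Of the activators, Arntl in astrocytes was at 132, 128, 135 and 144 CPM with vehicle and 128, 110.1, 126 and 108 CPM with DMXAA, without overlap, a change of -0.19 ± 0.10. Of all genes there, 7.32% had no overlap. Against its length class the levels of Arntl overlapped, at 0.04, -0.09, 0.13 and 0.25 with vehicle and 0.12, -0.21, 0.08 and -0.17 with DMXAA (log2). The change of Npas2 was -0.44 ± 0.17 there and -0.30 ± 0.18 in excitatory neurons, with overlap. Arntl in excitatory neurons gave -0.20 ± 0.16 and in inhibitory neurons 0.04 ± 0.16.

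**Figure D3:**
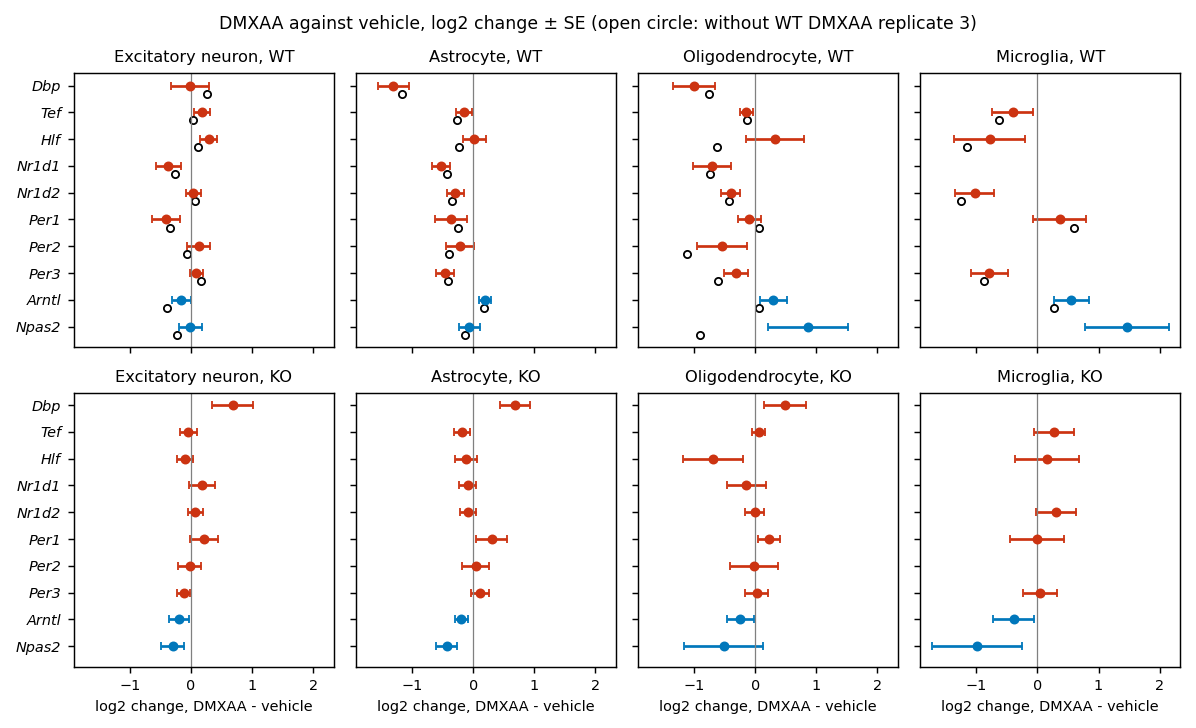
Log2 change ± SE of each member (vertical axis) with DMXAA against vehicle (horizontal axis) in WT (top) and KO (bottom), in 4 classes of nuclei; red marks output, receptor and period genes, blue the activators, and open circles the WT value without WT DMXAA replicate 3. Members without a point were too sparse for the fit. In WT astrocytes Dbp sits at -1.31 and in KO astrocytes at 0.68.

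The vehicle groups of the genotypes are also described without p-values, since the runs of members across the 16 libraries helped to choose them and hold this difference. Vehicle-treated KO animals had less Dbp and Nr1d1 and more Arntl, Npas2 and Hlf than vehicle-treated WT animals in both excitatory neurons and astrocytes, except that in astrocytes Dbp and Nr1d1 were not lower than genes of their own length (0.08 and 0.18 on the log2 scale). Of the 10 members, 8 met the call rule in excitatory neurons (edgeR, adjusted p under 0.05 and a log2 difference over 0.1 in size), where 49.4% of all genes did. In inhibitory neurons 3 of 10 met it beside 38.4% of all genes, in astrocytes 6 of 10 beside 29.5%, and in oligodendrocytes 2 of 10 beside 29.6%. In oligodendrocyte precursors it was 1 of 8 beside 24.7%, and in microglia 1 of 7 beside 12.8%. Over the 6 classes 21 of 55 fitted values met the rule, with 12 when KO vehicle replicate 2 was left out. The choice of the members used this difference, so nothing about them is read from these counts. Libraries of the vehicle groups did not overlap for 5 of 10 members in excitatory neurons (51.8% of all genes), 3 of 10 in inhibitory neurons (40.2%), 6 of 10 in astrocytes (36.9%), 3 of 10 in oligodendrocytes (40.3%), 0 of 8 in oligodendrocyte precursors (29.8%) and 2 of 7 in microglia (28.7%).

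Dbp in excitatory neurons was at 8.84, 5.66, 10.5 and 9.70 CPM in WT and 4.41, 3.12, 4.47 and 3.81 CPM in KO vehicle libraries, without overlap, at a log2 difference of -1.13 ± 0.33. It was -0.96 ± 0.25 in astrocytes and -1.26 ± 0.37 in inhibitory neurons. Nr1d1 was at 6.46, 4.98, 9.45 and 7.5 CPM against 4.90, 3.6, 4.18 and 4.24 CPM in excitatory neurons, a difference of -0.75 ± 0.21. In astrocytes the difference of Nr1d1 was -0.43 ± 0.14. Nr1d2, Per1 and Per3 were lower in excitatory neurons of KO, at log2 differences of -0.32, -0.57 and -0.34. The mix of excitatory neurons differed between libraries, and its part in these values was not tested.

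Per3 differed in sign between classes. In oligodendrocytes it was at 22.0, 22.8, 22.2 and 25.7 CPM in WT and 35.3, 44.3, 38.9 and 40.7 CPM in KO, without overlap, and higher by 0.78 ± 0.20. In microglia it was higher by 0.91 ± 0.29, and in oligodendrocyte precursors lower at -0.46. The oligodendrocyte and the excitatory neuron difference of Per3 lay 1.11 apart on the log2 scale. Of 20 such gaps of members that were tested 0 passed. Since the choice of the members used runs across classes, nothing is read from that.

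The activators were higher in KO in excitatory neurons, inhibitory neurons and astrocytes. Arntl was at 67.1, 63.1, 65.0 and 69.0 CPM in excitatory neurons of WT and 94.0, 121, 95.1 and 92.0 CPM in KO, a difference of 0.61 ± 0.16. It was 0.73 ± 0.16 in inhibitory neurons and 0.50 ± 0.10 in astrocytes. Npas2 was at 151, 101, 126 and 153 CPM against 227, 279, 267 and 226 CPM, a difference of 0.91 ± 0.19, with 1.23 in inhibitory neurons and 0.72 in astrocytes. In these 3 classes no library of the activators overlapped in CPM between the vehicle groups. Against their length classes Arntl in excitatory and inhibitory neurons still did not overlap, whereas Npas2 overlapped in all 3 classes and Arntl in astrocytes, and the difference of Npas2 in excitatory neurons went from 0.91 to 0.21. In oligodendrocytes Arntl differed by -0.02 ± 0.22 and in microglia by -0.03. Against its length class Arntl averaged 0.18 in WT and -0.20 in KO vehicle oligodendrocytes. In microglia these means were 0.13 and -0.28. Libraries overlapped in both classes.

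Hlf was at 61.5, 53.8, 57.2 and 65.6 CPM in WT and 112, 102, 89.7 and 94.0 CPM in KO excitatory neurons, higher by 0.74 ± 0.14, and by 0.53 in astrocytes. Tef was higher by 0.41 in astrocytes and 0.31 in oligodendrocytes. The D-box factors differed in direction in excitatory neurons, with Dbp lower and Hlf higher. Against genes of their own length Hlf still did not overlap there, while Dbp was at 0.24, -0.40, 0.32 and 0.28 in WT and -0.18, -0.49, -0.22 and -0.50 in KO vehicle libraries, so that WT vehicle replicate 2 lay within the KO range. In astrocytes they did so in CPM but not for Dbp against its length class (0.08). Tef and Per2 differed little in excitatory neurons, at 0.09 and 0.07.

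Scaling and gene length both moved with this comparison. Scaling by library size alone lowered the median of all genes by 0.47 (log2) in excitatory neurons, by 0.37 in inhibitory neurons and by 0.14 to 0.18 in the other 4 classes, so that 13.3% of calls in excitatory neurons were higher in KO, against 47.2% with TMM. The same split was 16% against 49.8% in inhibitory neurons, 25.7% against 42.9% in astrocytes, 23.9% against 43.6% in oligodendrocytes, 28.8% against 50.9% in precursors and 33.9% against 56.7% in microglia. Under library-size scaling, Tef and Per2 in excitatory neurons turned to -0.38 and -0.40, Tef in inhibitory neurons, Nr1d2 in astrocytes and Per1 in oligodendrocytes also changed sign, and Arntl in excitatory neurons was at 0.13. Across the 17485 genes with a length in excitatory neurons, the genotype difference correlated with log gene length (Pearson's r = 0.587, a description, since genes share libraries and are not independent). The median difference was -0.91 in the shortest 10% of genes and 0.70 in the longest 10%, and in astrocytes it was -1.04 and 0.58.

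The genes were divided by length into 10 classes of equal size. Against the median of their own length class, 9 of 10 members in excitatory neurons kept the sign of their difference, at -0.46 for Dbp, -0.29 for Nr1d1, 0.50 for Hlf, 0.20 for Arntl and 0.21 for Npas2. In astrocytes 7 of 10 kept it. There Dbp was at 0.08 and Nr1d1 at 0.18, so that neither was lower than the median of genes of its length, while Arntl was at 0.16, Tef at 0.50 and Hlf at 0.42. With DMXAA in WT the same correlation was 0.270 in astrocytes and 0.347 in oligodendrocytes, and with DMXAA in KO -0.386 and -0.425. The WT libraries were not alike in this. The shortest minus the longest 10% of genes (log2, described below) was 0.97, 0.92, -0.86 and 1.09 in WT DMXAA astrocytes, against 0.58 to 0.83 with vehicle. In oligodendrocytes it was 1.24, 1.18, -1.17 and 1.24, against 0.59 to 0.92. Only replicate 3 lay below vehicle, and neither these correlations nor the WT changes against length classes were taken without it. With DMXAA in WT, astrocyte Dbp stood at -1.25, Nr1d1 at -0.49 and Per3 at -0.48 against their own length class, and oligodendrocyte Dbp at -0.95. In KO the change of Dbp in astrocytes went from 0.68 to 0.41 and in oligodendrocytes from 0.49 to 0.24, while that of Nr1d1 in astrocytes was -0.26 and that of Per3 0.14.

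**Figure D4:**
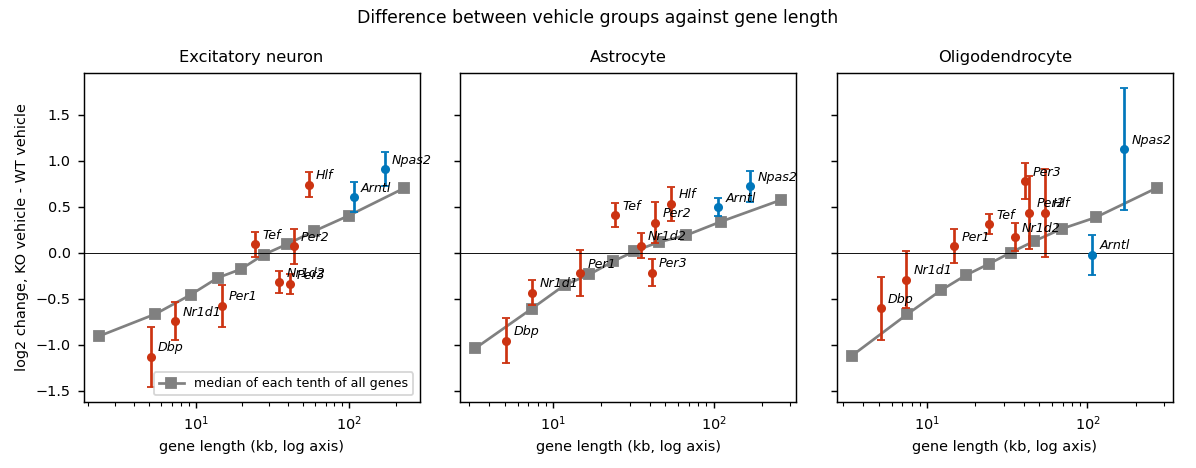
Log2 difference of KO vehicle minus WT vehicle (vertical axis) against gene length in kb (horizontal log axis) in 3 classes; grey squares are the medians of the 10 length classes of all genes, red points output, receptor and period genes, blue points the activators, each with its SE. Dbp and Nr1d1 lie at the short, low end of the grey line, Arntl and Npas2 at the long, high end, and Per3 lies below it in excitatory neurons and above it in oligodendrocytes.

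Each library could be placed on this axis by the median deviation of its shortest 10% of genes minus that of its longest 10%, on the log2 scale. In excitatory neurons this was 0.60, 0.66, 0.90 and 0.76 in WT vehicle, 1.12, 1.0, -0.87 and 1.05 in WT DMXAA, -0.80, -1.14, -0.69 and -0.60 in KO vehicle and -0.29, -0.77, -0.29 and -0.36 in KO DMXAA libraries. WT DMXAA replicate 3 thus sat with the KO libraries, and it did so in all 6 classes. Over the 16 libraries the level of Dbp in excitatory neurons followed this value with r = 0.89, Nr1d1 with 0.76, Per3 with 0.83, Hlf with -0.92, Arntl with -0.94 and Npas2 with -0.91, while Nr1d2 gave 0.62, Per1 0.44, Per2 -0.35 and Tef -0.30. In astrocytes the r was -0.90 for Hlf, -0.80 for Tef, -0.67 for Npas2, -0.65 for Arntl, -0.64 for Per2, -0.45 for Nr1d2 and 0.56 for Nr1d1, and Dbp, Per1 and Per3 lay nearer to 0 (0.16, 0.074 and 0.0083). These are descriptions across 16 libraries that share 4 groups.

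**Figure D5:**
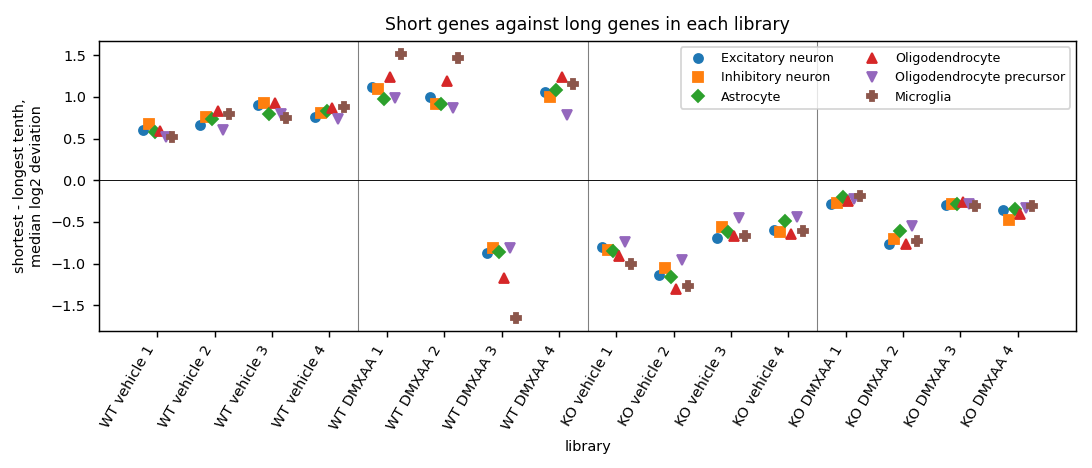
For each of the 16 libraries (horizontal axis) and 6 classes of nuclei (symbols), the median log2 deviation of the shortest 10% of genes minus that of the longest 10% (vertical axis). WT libraries lie above 0 and KO libraries below it, apart from WT DMXAA replicate 3, which lies at -0.87 in excitatory neurons.

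The members were also compared with each other across libraries, which is part of what chose them. In excitatory neurons Arntl and Npas2 ran together (Pearson's r = 0.934, Spearman's rho = 0.953 over 16 libraries), and so did Dbp and Nr1d1 (r = 0.782). Dbp and Arntl ran opposite (r = -0.802). After the 4 group means were removed these 3 values became 0.820, 0.689 and -0.764, and without WT DMXAA replicate 3 they were 0.664, 0.714 and -0.292. Without the 2 libraries farthest from the median of Dbp, the values over libraries were 0.911, 0.739 and -0.786. Against the length classes all 3 were smaller in size, at 0.633, 0.384 and -0.432 over 16 libraries and 0.404, 0.368 and -0.415 with group means removed. Within groups of excitatory neurons the opposite run of Dbp and Arntl therefore rested largely on 1 library.

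In astrocytes Dbp and Arntl gave -0.479 over 16 libraries, -0.657 with group means removed and -0.666 also without that library, and against the length classes -0.486 over 16 libraries and -0.736 with group means removed. Tef and Nr1d2 were the closest pair there (r = 0.845, and 0.861 with group means removed). Against their length classes and with group means removed, the 28 pairs among the 8 output, receptor and period genes had a median r of 0.374 in astrocytes with 25 positive, 0.404 in oligodendrocytes with 24 positive, and 0.189 in excitatory neurons with 19 positive. The 16 pairs of these genes with the activators had a median of -0.258 in astrocytes with 14 negative, 0.272 in excitatory neurons with 5 negative, and 0.119 in oligodendrocytes with 5 negative. This count depended on how the levels were treated. Without the length classes, over 16 libraries 10 of the 16 pairs were negative in excitatory neurons (median -0.37) and 7 in astrocytes (median 0.056). With group means removed 7 were negative in excitatory neurons and 12 in astrocytes, and with library-size scaling as well 9 in each. No order of the classes is read from it. In oligodendrocytes the pairs with Npas2 rest on counts read as background, and those with Hlf do so in part. The medians and counts of pairs given for that class are therefore not read as runs of the members.

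The log2 difference of Dbp minus Arntl within a library combines both arms. In astrocytes it was -0.59, -0.97, -0.73 and -0.65 in WT vehicle, -3.09, -2.70, -2.66 and -1.11 in WT DMXAA, -2.34, -2.06, -1.94 and -2.44 in KO vehicle and -1.29, -1.42, -1.65 and -0.94 in KO DMXAA libraries. WT vehicle was thus highest, overlapping with KO DMXAA replicate 4. WT DMXAA was lowest except for its replicate 4, and KO DMXAA lay above KO vehicle. Dbp is short and Arntl long, and with each set against its length class the order of the other groups turned: the astrocyte values were 0.55, 0.10, 0.24 and 0.33 in WT vehicle, 0.04, 0.59, 0.26 and -0.39 in KO vehicle and 0.58, 0.75, 0.25 and 1.0 in KO DMXAA libraries, which overlapped. WT DMXAA, at -2.23, -1.84, -0.32 and -0.38, stayed below every WT vehicle library. In excitatory neurons it was -2.92, -3.47, -2.63 and -2.83 in WT vehicle and -2.21, -2.44, -4.81 and -2.16 in WT DMXAA libraries. It was -4.40, -5.25, -4.40 and -4.58 in KO vehicle and -3.88, -4.43, -3.28 and -3.58 in KO DMXAA libraries. There 3 of the 4 WT DMXAA libraries stood above every WT vehicle library and replicate 3 lay within the KO vehicle range. Astrocytes and excitatory neurons of WT DMXAA replicates 1, 2 and 4, taken from the same animals, therefore stood on opposite sides of their vehicle groups. They did so also against the length classes (0.60, 0.49, -0.64 and 0.70 in WT DMXAA and 0.25, -0.32, 0.32 and 0.23 in WT vehicle excitatory neurons).

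The same member could differ between classes of the same libraries. With group means removed from the 16 libraries, the level of Per1 in inhibitory neurons followed that in excitatory neurons with r = 0.730. That of Hlf in astrocytes did so with 0.790, while Per3 in oligodendrocytes ran opposite to Per3 in excitatory neurons (r = -0.758). Dbp in astrocytes followed Dbp in excitatory neurons with r = 0.247, also with group means removed. Without the 2 libraries farthest from the median these values were 0.720, 0.539, -0.597 and 0.129, in the order given. They were not set against length classes. Over the 16 libraries, Per3 followed the value of short minus long genes with r = 0.83 in excitatory neurons and -0.86 in oligodendrocytes. Hlf followed it with -0.92 in excitatory neurons and -0.90 in astrocytes. The part of gene length in these runs between classes was not tested. All these values share animal and library.

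The 17 other listed clock genes, which were not members, could be tested with DMXAA. With all libraries 0 of 86 tests in 6 classes passed in WT (8 at an unadjusted p under 0.05) and 0 of 86 in KO (4 at an unadjusted p under 0.05) by edgeR, and DESeq2 also called 0 in each. Of all genes, 0.114% passed with DMXAA in WT in excitatory neurons, 0% in inhibitory neurons, 0.227% in astrocytes, 0.0251% in oligodendrocytes, 0.181% in precursors and 1.72% in microglia, and 0% in each class of KO. Without WT DMXAA replicate 3, a choice made after seeing the data, 6 passed in WT and KO together. The shares of all genes then were 0.248%, 0.00723%, 1.28%, 2.64%, 1.06% and 9.24% in WT and 0%, 0%, 0.43%, 0.00826%, 0.568% and 1.42% in KO, in the same order of classes. Ciart, a repressor of the CLOCK and BMAL1 pair, was at 12.5, 15.4, 13.3 and 16.9 CPM in WT vehicle astrocytes and 4.66, 4.22, 12 and 8.56 CPM with DMXAA, without overlap. Its log2 change was -0.96 ± 0.26 (edgeR adjusted p = 0.271) with all libraries and -1.28 ± 0.25 (edgeR adjusted p = 0.0086) without replicate 3. In oligodendrocytes it was at 7.57, 10.5, 7.73 and 7.80 CPM against 3.00, 4.95, 3.22 and 6.60 CPM, a change of -0.90 ± 0.31 (edgeR adjusted p = 0.66), also without overlap.

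Bhlhe41 (DEC2), another repressor at E-boxes, was higher with DMXAA in WT microglia by 0.67 ± 0.20 (edgeR adjusted p = 0.0333) and in excitatory neurons by 0.52 ± 0.10 (edgeR adjusted p = 0.0482) without replicate 3. With all libraries these were 0.52 ± 0.24 and 0.37 ± 0.15. In microglia Rora, an activator at ROR elements, and Csnk1e, a kinase of PER, were lower without replicate 3, at -1.02 ± 0.26 and -0.61 ± 0.17 (edgeR adjusted p = 0.00919 and 0.0186). With all libraries Rora was at 0.44 ± 0.54, on the other side of 0, and Csnk1e at -0.58 ± 0.17, and neither passed (edgeR adjusted p = 0.878 and 0.11). In the same fit without WT DMXAA replicate 3, Rora in KO microglia was at -0.79 ± 0.19 (edgeR adjusted p = 0.0314), and with all libraries it was at -0.79 ± 0.54 and did not pass (edgeR adjusted p = 0.906). With all libraries the 4 largest changes in WT excitatory neurons were of Rorb, Bhlhe41, Usp2 and Csnk1e, at -0.89, 0.37, -0.29 and -0.24 (edgeR adjusted p = 0.9995 for each). The difference between the WT and the KO effect of DMXAA passed for 0 of 86 tests of these genes by edgeR (4 at an unadjusted p under 0.05, DESeq2 0, lowest adjusted p = 0.484). In WT astrocytes Cry1, Cry2 and Clock were at -0.47 ± 0.24, -0.13 ± 0.12 and 0.31 ± 0.12, and did not pass (edgeR adjusted p = 0.796, 0.905 and 0.693).

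Between the vehicle groups, 15 of 86 tests of these genes were higher in KO and 6 lower, beside 15.7% higher and 17.5% lower of all tests of genes in the 6 classes together. The share higher was thus near that of all genes, and the share lower was below it. Ciart was lower in excitatory neurons at -0.95 and in inhibitory neurons at -0.87 (edgeR adjusted p = 0.0103 and 0.0312). It is 3.749 kb long, and against the median of its length class it was at -0.039 and 0.11 there. Rora, 734.461 kb long, was higher in 4 classes and Btrc, 166.28 kb long, which marks PER for degradation, in 5. Against their length classes in excitatory neurons they were at 0.34 and -0.0032. Cry2 was higher in inhibitory neurons by 0.36 and in oligodendrocytes by 0.52 (edgeR adjusted p = 0.0184 and 0.00314), and at 0.36 and 0.52 against its length class. Clock, the partner of Arntl, did not pass in excitatory neurons (edgeR adjusted p = 0.984). Of 26 tests of rhythmic output genes 1 rose with DMXAA in WT, Nampt in microglia; 0 passed in KO by edgeR (2 at an unadjusted p under 0.05, DESeq2 0), and 4 were lower between the vehicle groups, all of Coq10b. The rhythmic output genes with the largest values in WT excitatory neurons, Coq10b, Tspan4, Marveld1 and Nampt, were at -0.52, 0.27, -0.19 and 0.19. The immediate early genes were lower in 21 of 42 tests and higher in 0 between the vehicle groups, and glucocorticoid-responsive genes higher in 12 and lower in 10 of 74, which beside the 15.7% and 17.5% of all genes is near the background for the glucocorticoid list. The immediate early genes had a median length of 5.16 kb, and over the 42 tests their median difference was -1.43, or -0.62 against their length classes. With DMXAA in KO 0 of either list passed by edgeR (1 and 3 at an unadjusted p under 0.05, DESeq2 0 in each).

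The genes whose pattern was most like that of Dbp and of Arntl were found over the 16 libraries in excitatory neurons with group means removed, among 10670 genes with a mean of at least 5 CPM. Those with the largest r with Dbp were Tpi1 (0.981), AW549877, Ctxn1, Fbxl15, Pip4p1, 6330403K07Rik, Mlst8, Emc4, Gm42372 and Cggbp1 (0.937), and those with the most negative r were Mnat1 (-0.955), Rbm4, 1190005I06Rik, Prkca and Fer (-0.935). The closest member, Nr1d1, came at rank 1876. These values rest in part on WT DMXAA replicate 3: without it the 10 largest with Dbp were between 0.80 and 0.95, Tef went from -0.26 to 0.62 and Arntl from -0.76 to -0.29, and ranks were not taken again. With Arntl the largest were Atxn1 (0.984), Gm10115, Kctd1, Cyth3, Smurf1, Hs2st1, Bcl11a, Foxp1, Phactr3 and Sh3bp4 (0.969), the most negative Ttc14 (-0.963), Rchy1, Haghl, Proser1 and Htra2 (-0.950), and Npas2 came at rank 1445. The 10 genes most like Dbp had a median length of 4.90 kb and the 5 most opposite one of 150.3 kb, whereas the 10 most like Arntl had one of 118 kb and the 5 most opposite one of 14.2 kb.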

How the data were processed

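Hippocampal nuclei of 16 male mice, 4 per group, were measured by 10x Chromium 3′ v3.1 single-nucleus RNA-seq. The authors deposited 1 table of UMI counts per library (32285 genes), not normalized. The processing notes name Cell Ranger 3.1.0, Seurat 3.0 and mm10, whereas the file headers name Cell Ranger 6.1.2.

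Barcodes with 200 to 4000 genes and at most 5% mitochondrial UMIs were kept. Doublets were removed at a rate that rose with the number of barcodes, by a score from simulated pairs, and nuclei were clustered (2000 variable genes without 27 clock genes, 30 principal components, 20 neighbours, leidenalg 0.10.2, resolution 0.5, 35 clusters) and named from markers. Counts were summed per library and class and fitted by the quasi-likelihood test of edgeR 4.0.16 (R 4.3.3), with filterByExpr and TMM scaling, over all 16 libraries with no covariate. The fit was tested on simulated data first. A gene passed where its p, adjusted by Benjamini-Hochberg over all genes of a class, was under 0.05 and its log2 change over 0.1 in size. DESeq2 1.42.0, no filter, doublets kept, 8 libraries, library-size scaling and each library left out were alternatives. Python 3.11.15 and SciPy 1.17.1 were used for the rest.

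The members and all gene lists (17 other clock genes, 7 rhythmic output, 18 glucocorticoid-responsive, 13 immediate early and 12 interferon-stimulated genes) were chosen with earlier results of these data known. The choice used the members' runs over all libraries and classes, so p-values computed for members between the vehicle groups and between classes are not given. All members are described. Of each list the 4 genes with the largest absolute change in WT excitatory neurons are named, as are Cry1, Cry2, Clock, Ciart and Bhlhe41 and, for likeness, the 10 largest and 5 most negative correlations. CPM under 3 UMIs in a library are under the counting floor, which covers counting error only.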

Additional observations from a re-analysis of the deposited data

Results flagged for a closer look

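In 11 of 120 groups of 4 libraries looked at, 1 library lay far from the other 3 by Dixon's criterion, each time as the highest. The nominal rate of about 1 in 20 is for independent groups, whereas these hold chosen members and share libraries. No share over all genes is given, so the count is a description. In excitatory neurons the outlying value was that of Arntl in KO vehicle replicate 2, at 121.0 CPM. In astrocytes it was Dbp in WT DMXAA replicate 4 (42.4 CPM, toward vehicle), Hlf in KO DMXAA replicate 2 (241 CPM) and Nr1d1 in WT vehicle replicate 3 (62.4 CPM). In oligodendrocytes, WT DMXAA replicate 3 stood out for Hlf (25.8 CPM) and Npas2 (40.4 CPM), the genes whose counts there are in part or wholly read as background. KO DMXAA replicate 2 stood out for Hlf (8.66 CPM) and Per2 (20.1 CPM), KO DMXAA replicate 4 for Arntl (29.0 CPM), WT vehicle replicate 4 for Nr1d1 (7.34 CPM) and KO vehicle replicate 4 for Per2 (16.5 CPM).

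Dbp in astrocytes lay on opposite sides of vehicle in the genotypes: every WT DMXAA library lay below every WT vehicle library, at a log2 change of -1.31, and every KO DMXAA library lay above every KO vehicle library, at 0.68. The difference was not tested, since it helped to choose the members. Against genes of the same length class (10 classes of equal size), the levels of Dbp in astrocytes were 0.40, 0.16, 0.07 and 0.23 (log2) in WT vehicle and -1.94, -1.64, -0.57 and -0.44 in WT DMXAA libraries, so that replicates 3 and 4 lay nearest to vehicle. In KO they were 0.08, 0.50, 0.40 and -0.14 with vehicle and 0.70, 0.53, 0.34 and 0.83 with DMXAA, which overlapped, so that the separation of the KO groups was not kept at matched length.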

How the results depend on the processing

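Over 1152 alternative values of single members between the vehicle groups (log2, KO minus WT), 1022 kept their direction and their side of the call rule, 78 no longer met it, 21 newly met it and 31 turned sign, each from a value that had not met it. With library-size scaling, Tef and Per2 turned to -0.38 and -0.40 in excitatory neurons, both meeting the call rule, and Tef in inhibitory neurons, Nr1d2 in astrocytes and Per1 in oligodendrocytes turned to -0.23, -0.064 and -0.086. Per2 in inhibitory neurons turned to 0.019 by DESeq2 and 0.0046 without the filter, Arntl in oligodendrocytes to 0.014 by DESeq2 and 0.080 with doublets kept, and Arntl in microglia to 0.46 with doublets kept. With a library left out, Per2 ranged from -0.034 to 0.20 in excitatory and from -0.070 to 0.034 in inhibitory neurons, Per1 in astrocytes from -0.35 to 0.047, and Arntl from -0.11 to 0.076 in oligodendrocytes and from -0.34 to 0.15 in microglia. The cause was not tested. Of 55 fitted values 21 met the call rule, with 17 by DESeq2 and 17 without the filter. Leaving out each library in turn gave 12 to 24, the lowest without KO vehicle replicate 2 (12). Nothing about the members is read from these counts, since the choice of the members used this difference. The other clock genes called with DMXAA were 0 with all libraries and 6 without WT DMXAA replicate 3, and 0 to 6 over the libraries left out. In excitatory neurons of WT, the median of the 8 output, receptor and period genes was 0.06 and moved to -0.13 in sums over all nuclei kept; the cause was not tested. Over the libraries left out it ranged from -0.0135 to 0.105, and the mean of Arntl and Npas2 from -0.313 to 0.0172. In KO these ranged from -0.0407 to 0.0873 and from -0.349 to -0.171. No paired analysis was possible because replicate numbers only name libraries. Sparse genes set the depth limit: Dbp, Nr1d1 and Per2 in microglia, Dbp and Nr1d1 in oligodendrocyte precursors and CA3 neurons, and Arntl and Npas2 in fibroblasts could not be fitted.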

Other observations

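In classes too small to compare between groups, the UMIs of all 16 libraries were pooled. Dbp was at 130 CPM in mural and 89.3 CPM in endothelial nuclei. It was at 11.8 CPM in border macrophages (12 UMIs) and 1.11 CPM in differentiating precursors (2 UMIs, under the floor of 3 counts). Arntl was at 73.9 CPM in border macrophages (75 UMIs), 51.7 CPM in Cajal-Retzius nuclei (87 UMIs) and 17.3 CPM in mural nuclei (16 UMIs). Dbp was thus higher in mural nuclei than in border macrophages and Arntl lower, each within its own gene, and with no replicate test. On the log2 scale mural Dbp also lay above its mean of 6.00 in fibroblasts. Mural Nr1d1, Nr1d2, Per1 and Per2, at 48.6, 266, 86.4 and 147 CPM, likewise lay above their highest mean among the 7 compared classes. Those of Tef, Hlf, Per3 and the activators lay below theirs.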
